A study of Mus musculus with 6 samples.

Results

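The Wnt pathway genes described here are the ligands, receptors, intracellular transducers, nuclear factors and feedback targets of Wnt signalling in somite-level tissue of mouse embryos. They were chosen as a list of 40 gene names, and a probe set counted as a member if the platform annotation gave it exactly 1 gene symbol and that symbol was on the list. The array measured 37 of the 40 genes with 63 probe sets, out of 12393 genes and 22626 probe sets in all. Fzd10, Tcf7 and Rspo3 had no such probe set and were not analysed here. The embryos were at 9.5 days post coitum, of strain c57bl/6 per the labels, and fell into 2 groups. Embryos of the Dll3neo/neo group carried the Dll3-tm1Rbe allele on both chromosomes, and those of the other group were wild-type. Dll3 is a Notch pathway gene of the Delta family, and loss of its function disturbs the segmentation of the trunk. Each group gave 3 pools of tissue, described by the submitters as biological replicates, and each pool was hybridised to 1 Affymetrix MOE430A array. How many embryos made up a pool is not stated in the labels. The tissue ran from the otic placode to the last formed somite, with the presomitic mesoderm, heart and endoderm cut away, so somites were measured together with neural tube, surface ectoderm and other tissues of that level. In such a mixture, fewer cells of a type and less RNA per cell cannot be told apart.

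Wnt ligands are secreted lipid-modified proteins that bind Frizzled receptors, with Lrp5 or Lrp6 as co-receptors in the canonical branch. Dishevelled proteins then stop the destruction complex of Axin, Apc and Gsk3b from marking beta-catenin for degradation, and beta-catenin enters the nucleus and activates genes together with the Lef and Tcf factors. In the embryonic trunk, Wnt signals from the dorsal neural tube and surface ectoderm act on the dermomyotome, and Wnt3a of the tail bud maintains the presomitic mesoderm. Several feedback genes, Axin2 and Nkd1 among them, cycle with the segmentation clock in the mouse presomitic mesoderm, which had been cut away from the tissue measured here.

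The feedback targets are where Lef and Tcf factors are known to act on transcription, and their upstream sequences are shown for that reason. The sequences are the 250 bases before a transcript start in the RefSeq table, written 5′ to 3′ on the gene's strand (build GRCm38.p6). Capitals mark the Lef/Tcf core motif, searched on both strands as CTTTGAA or CTTTGAT or CTTTGTA or CTTTGTT. Axin2 (chr11:108920099-108920348, plus strand), Nkd1 (chr8:88527383-88527632, plus strand), Sp5 (chr2:70474673-70474922, plus strand) and Tnfrsf19 (chr14:61037988-61038237, minus strand) read as follows.
Axin2: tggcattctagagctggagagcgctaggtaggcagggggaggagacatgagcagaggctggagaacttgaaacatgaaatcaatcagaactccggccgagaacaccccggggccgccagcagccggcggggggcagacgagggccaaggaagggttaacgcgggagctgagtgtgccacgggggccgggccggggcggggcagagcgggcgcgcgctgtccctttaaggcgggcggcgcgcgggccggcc
Nkd1: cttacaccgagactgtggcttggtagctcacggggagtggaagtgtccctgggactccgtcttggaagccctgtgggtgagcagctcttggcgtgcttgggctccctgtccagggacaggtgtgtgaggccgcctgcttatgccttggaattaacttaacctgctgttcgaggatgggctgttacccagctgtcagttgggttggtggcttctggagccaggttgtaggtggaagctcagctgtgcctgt
Sp5: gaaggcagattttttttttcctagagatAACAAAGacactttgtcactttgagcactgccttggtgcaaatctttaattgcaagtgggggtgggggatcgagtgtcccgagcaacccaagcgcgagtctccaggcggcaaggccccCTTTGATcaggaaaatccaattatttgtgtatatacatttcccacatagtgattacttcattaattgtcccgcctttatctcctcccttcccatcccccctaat
Tnfrsf19: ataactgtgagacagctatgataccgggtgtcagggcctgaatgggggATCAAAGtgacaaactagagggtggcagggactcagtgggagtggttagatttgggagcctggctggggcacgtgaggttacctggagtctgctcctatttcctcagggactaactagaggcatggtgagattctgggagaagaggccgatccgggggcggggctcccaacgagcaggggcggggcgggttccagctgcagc
Sp5 held the motif at 2 places, 222 and 104 bases before its start, and Tnfrsf19 held it once, 202 bases before the start shown. The windows of Axin2, Nkd1 and Dact1 and the other Tnfrsf19 window had none, which says only that these letters are not in the window. Of the 40 genes, 29 had at least 1 window in the table, 39 windows in all. The motif was in 7 of the 39 windows (17.9%), one each for Wnt5b, Wnt11, Fzd7, Lef1, Tcf7l2, Sp5 and Tnfrsf19, against 4871 of 32817 windows of all genes (14.8%).

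Each deposited value is taken as a linear ratio of a probe set to a reference of that probe set, so levels cannot be compared between genes. The median over the 6 pools was 1 (within 0.0015) for 93.4% of rows and lower for the other 1497, among them the probe set of Wnt3 and 1 of the 3 of Apc. For the same reason the tissue label could not be checked against absolute marker levels. The value of a gene in a pool is the geometric mean of its probe sets' ratios. In limma's test over all genes, 0 of the 37 members passed an adjusted p of 0.05 (two-sided, Benjamini-Hochberg), and 0 of 37 had an unadjusted p under 0.05. Over all 12393 genes, 0% passed the adjusted threshold and 2.67% had an unadjusted p under 0.05, 1.31% higher and 1.36% lower in Dll3neo/neo. Of the 63 member probe sets, 0 passed the adjusted threshold, as did 0% of all 22626 probe sets. An unadjusted p under 0.05 was found for 2 member probe sets (3.17%), 1 of Wnt5a and 1 of Wnt7b, both higher in Dll3neo/neo, against 2.63% of all probe sets, 1.38% higher and 1.25% lower. Limma's adjusted p was 0.9997 for each of the 37 genes.

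The intervals of the differences bound what these pools leave room for in the mean of a gene's probe sets. They are bounds on measured ratios, in which dim probe sets could not be recognised. They come from the fit with genotype alone, which does not separate genotype from the pools' sex mix (given with Xist below). The 95% intervals, each taken by itself, reached from a log2 difference of -0.45 (0.732-fold, Lef1) at the lowest to 0.46 (1.38-fold, Wnt7b) at the highest. All 37 therefore lay inside a 1.5-fold change in either direction, as did those of 99.5% of all genes. This did not hold for every single probe set, as the interval of 1 probe set of Lrp6 reached -0.586, just past 1.5-fold. Inside a 1.3-fold change lay the intervals of 32 members (86.5%), against 90.4% of all genes, and the other 5 were those of Wnt1, Wnt7b, Fzd5, Lef1 and Nkd1. The median size of the log2 difference, sign left aside, was 0.057 over the members and 0.054 over all genes. By comparison, Uncx, a homeobox gene of the caudal somite compartment and no member, had a log2 difference of -0.998 (SE 0.124) in the same fit and missed the threshold as well (adjusted p = 0.116 in limma).

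**Figure D1:**
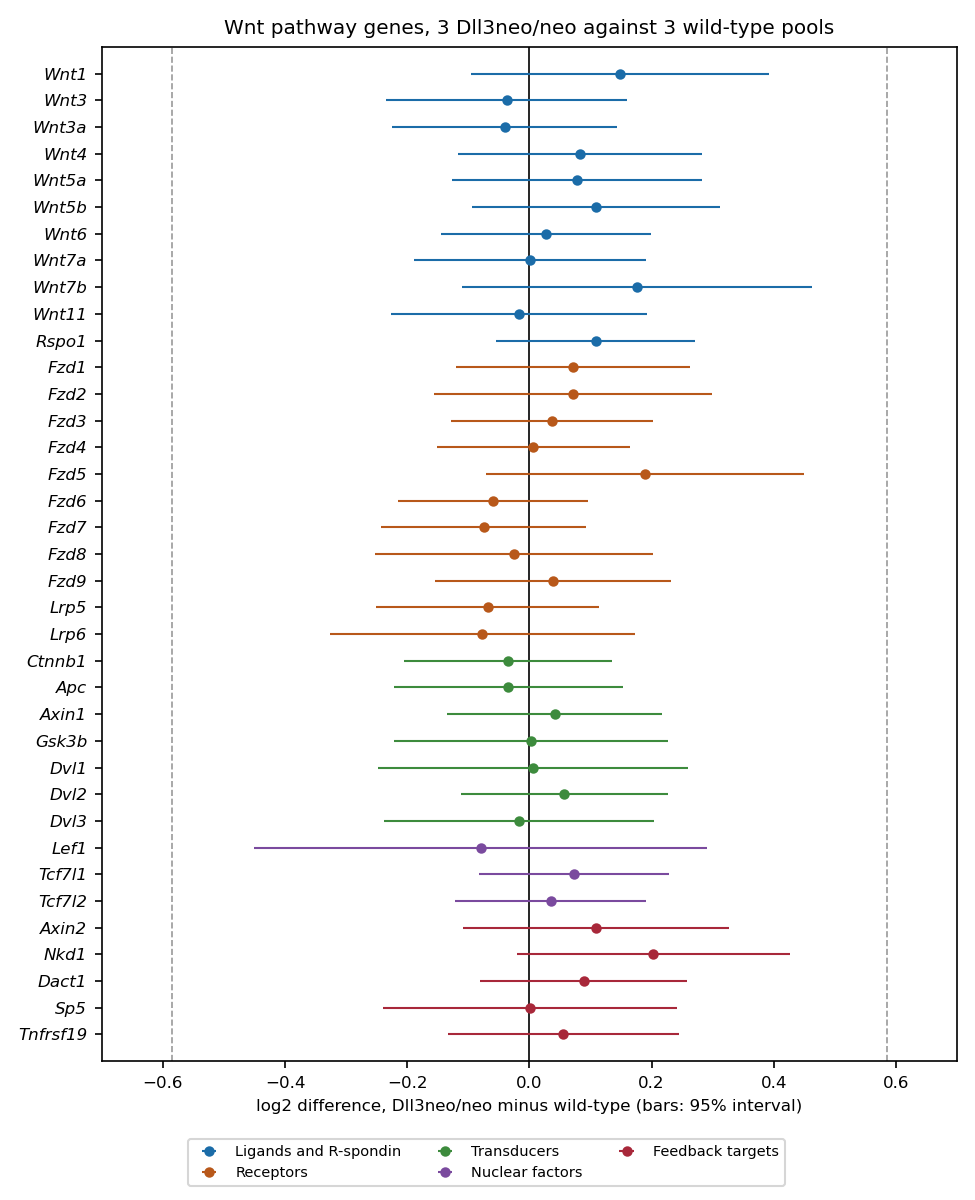
Log2 difference (Dll3neo/neo minus wild-type, horizontal axis) of the 37 measured Wnt pathway genes, coloured by role, with the 95% limma interval as a bar and 1.5-fold in either direction as dashed lines. Every interval crosses 0 and stays inside the dashed lines, and Nkd1 has the largest difference at 0.20.

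The secreted members came to 11 measured genes, 10 Wnt ligands and Rspo1. Of these, 8 had a log2 difference above 0 and 3 below, with a median of 0.078 and a range of -0.041 to 0.18. With a score of the pools' sex mix (the sex score, defined with Xist below) as a covariate, the median was -0.0013. That score was higher in every Dll3neo/neo pool than in any wild-type pool, so fits with it separate genotype and sex mix poorly. The median was 0.029 without wild-type replicate 2 and 0.027 with the most variable probe set of each gene. Wnt7b, a ligand of surface ectoderm and neural epithelium, had ratios of 1.33, 1.02 and 0.942 in the Dll3neo/neo pools, against 1.04, 1 and 0.852 in the wild-type pools. The first Dll3neo/neo pool stood above the other 5, and the other values of the groups overlapped. The log2 difference of Wnt7b was 0.18 (SE 0.129), and it was 0.028 without Dll3neo/neo replicate 1, 0.089 without wild-type replicate 3 and 0.28 without Dll3neo/neo replicate 3.

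Rspo1, an R-spondin that strengthens Wnt signalling by sparing Frizzled receptors from turnover, had ratios of 0.998, 1.04 and 1.04 in the Dll3neo/neo pools, against 0.923, 0.937 and 1.002 in the wild-type pools. The highest wild-type pool overlapped the lowest Dll3neo/neo pool, and the log2 difference was 0.11 (SE 0.0731). Wnt1, expressed at the dorsal midline of the neural tube, had ratios of 1.26, 1.04 and 0.962 in the Dll3neo/neo pools, against 1.08, 0.934 and 0.913 in the wild-type pools, a log2 difference of 0.15 (SE 0.110). As with Wnt7b, the highest value was that of Dll3neo/neo replicate 1, and the groups overlapped. Without that pool the difference of Wnt1 was 0.038.

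Wnt3a, the dorsal neural tube and tail bud ligand, had ratios of 0.932, 0.978 and 1.03 in the Dll3neo/neo pools, against 1.02, 1.08 and 0.929 in the wild-type pools. The groups covered nearly the same range, and Wnt3a differed by -0.041 on the log2 scale (95% interval -0.22 to 0.14), or by 0.0071 without wild-type replicate 2. Wnt3, its close paralogue, had ratios of 0.504, 0.554 and 0.627 in the Dll3neo/neo pools, against 0.576, 0.577 and 0.569 in the wild-type pools. The groups overlapped at -0.037, and its 1 probe set is of a type (_x_at) that can also bind related transcripts. The remaining ligands were Wnt4 (0.083), Wnt5a (0.078), Wnt5b (0.11), Wnt6 (0.027), Wnt7a (0.0012) and Wnt11 (-0.017), and the groups of pools overlapped for each.

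Wnt5a, a ligand of the noncanonical branch, was read by 2 probe sets that did not agree. The first had ratios of 1.05, 1.07 and 1.06 in the Dll3neo/neo pools, against 0.948, 0.860 and 0.888 in the wild-type pools. These groups did not overlap, and its log2 difference was 0.24 (SE 0.0835, limma adjusted p = 0.99996 over all probe sets). The second had ratios of 0.905, 0.965 and 1.23 in the Dll3neo/neo pools, against 1.04, 0.95 and 1.302 in the wild-type pools, a log2 difference of -0.086 (SE 0.1396). Its values lay highest in the third pool of each genotype.

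The receptors came to 11 measured genes, 9 Frizzled genes with Lrp5 and Lrp6, of which 6 had a difference above 0 and 5 below (median 0.0064, range -0.077 to 0.19). That median took either sign over the alternatives, from -0.039 to 0.039. Fzd5 had ratios of 1.02, 0.978 and 1.34 in the Dll3neo/neo pools, against 0.9, 1.02 and 0.980 in the wild-type pools. The difference of 0.19 (SE 0.117) came with 1 high pool, Dll3neo/neo replicate 3, and the other 5 pools overlapped. Without that pool it was 0.048.

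Fzd6, a receptor of planar cell polarity, had ratios of 0.968, 0.973 and 0.978 in the Dll3neo/neo pools, against 0.982, 1.02 and 1.04 in the wild-type pools. It was 1 of the 2 members whose groups did not overlap, and the size was small, a log2 difference of -0.059 (SE 0.0699). Neither of its 2 probe sets kept the groups apart by itself. Groups did not overlap for 2 of 37 members (5.41%), against 7.46% of all genes. In Dll3neo/neo pools 1 of the 2 was higher (Tcf7l1, against 3.98% of all genes) and 1 lower (Fzd6, against 3.49% of all genes), so the share among the members was near the background.

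Fzd7, a receptor of early mesoderm, had ratios of 0.939, 0.913 and 1.02 in the Dll3neo/neo pools, against 0.985, 1.01 and 1.03 in the wild-type pools. The third Dll3neo/neo pool lay inside the wild-type range, and the log2 difference was -0.075 (SE 0.0753). The co-receptor genes Lrp5 and Lrp6 were at -0.068 and -0.077. The 2 probe sets of Lrp6 differed in sign (-0.24 and 0.083). The other Frizzled genes were Fzd1 (0.071), Fzd2 (0.071), Fzd3 (0.037), Fzd4 (0.0064), Fzd8 (-0.026) and Fzd9 (0.039).

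The 7 transducers had the smallest median size of difference among the 5 roles, 0.034, with 4 above 0 and 3 below. Their signed median was 0.0023, and -0.048 without both pools numbered 3. Ctnnb1, which encodes beta-catenin, had ratios of 0.994, 0.964 and 1.003 in the Dll3neo/neo pools, against 0.996, 0.956 and 1.08 in the wild-type pools. All 6 pools were within a narrow band except wild-type replicate 3, and Ctnnb1 differed by -0.035 on the log2 scale (95% interval -0.21 to 0.14), but by 0.016 without that pool and 0.020 with the sex score. Axin1, the scaffold of the destruction complex, had ratios of 0.975, 0.970 and 1.05 in the Dll3neo/neo pools, against 0.991, 1.02 and 0.904 in the wild-type pools.

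The Axin1 groups overlapped, with a difference of 0.041 (SE 0.0792), which turned to -0.035 with the sex score and to -0.0099 without wild-type replicate 3. Dvl2, 1 of the 3 Dishevelled genes, had ratios of 1.02, 0.957 and 1.09 in the Dll3neo/neo pools, against 1.003, 0.978 and 0.963 in the wild-type pools. The difference was 0.057 (SE 0.0764), with overlap, and -0.00034 without both pools numbered 3. Dvl1 was at 0.0061, Dvl3 at -0.017, the kinase gene Gsk3b at 0.0023 and Apc, which binds beta-catenin in the destruction complex, at -0.034.

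Of the nuclear factors that carry beta-catenin to DNA, Lef1, Tcf7l1 and Tcf7l2 were measured. Lef1 had ratios of 1.02, 0.672 and 1.15 in the Dll3neo/neo pools, against 1.06, 0.899 and 0.977 in the wild-type pools. It held both the lowest and the highest value within the Dll3neo/neo group, so the pools of that genotype differed among themselves by more than the groups did. The log2 difference was -0.080 (SE 0.167), and without Dll3neo/neo replicate 2 it was 0.15. The within-group SD of Lef1 on the log2 scale was 0.298, larger than that of 99.3% of all genes and the largest among the 37 members, whose median was 0.106 (all genes 0.106).

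Tcf7l1, mostly a repressor of Wnt targets in the absence of beta-catenin, had ratios of 1.01, 1.01 and 1.03 in the Dll3neo/neo pools, against 0.959, 0.939 and 0.995 in the wild-type pools. Its groups did not overlap, and the log2 difference was 0.073 (SE 0.0701). Tcf7l2 had ratios of 0.984, 1.03 and 0.985 in the Dll3neo/neo pools, against 0.960, 0.973 and 0.996 in the wild-type pools. That difference of 0.035 (SE 0.0702) is a mean over 4 probe sets, 2 above 0 and 2 below, from -0.071 to 0.15, and was -0.0052 without _x_at and _s_at probe sets.

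**Figure D2:**
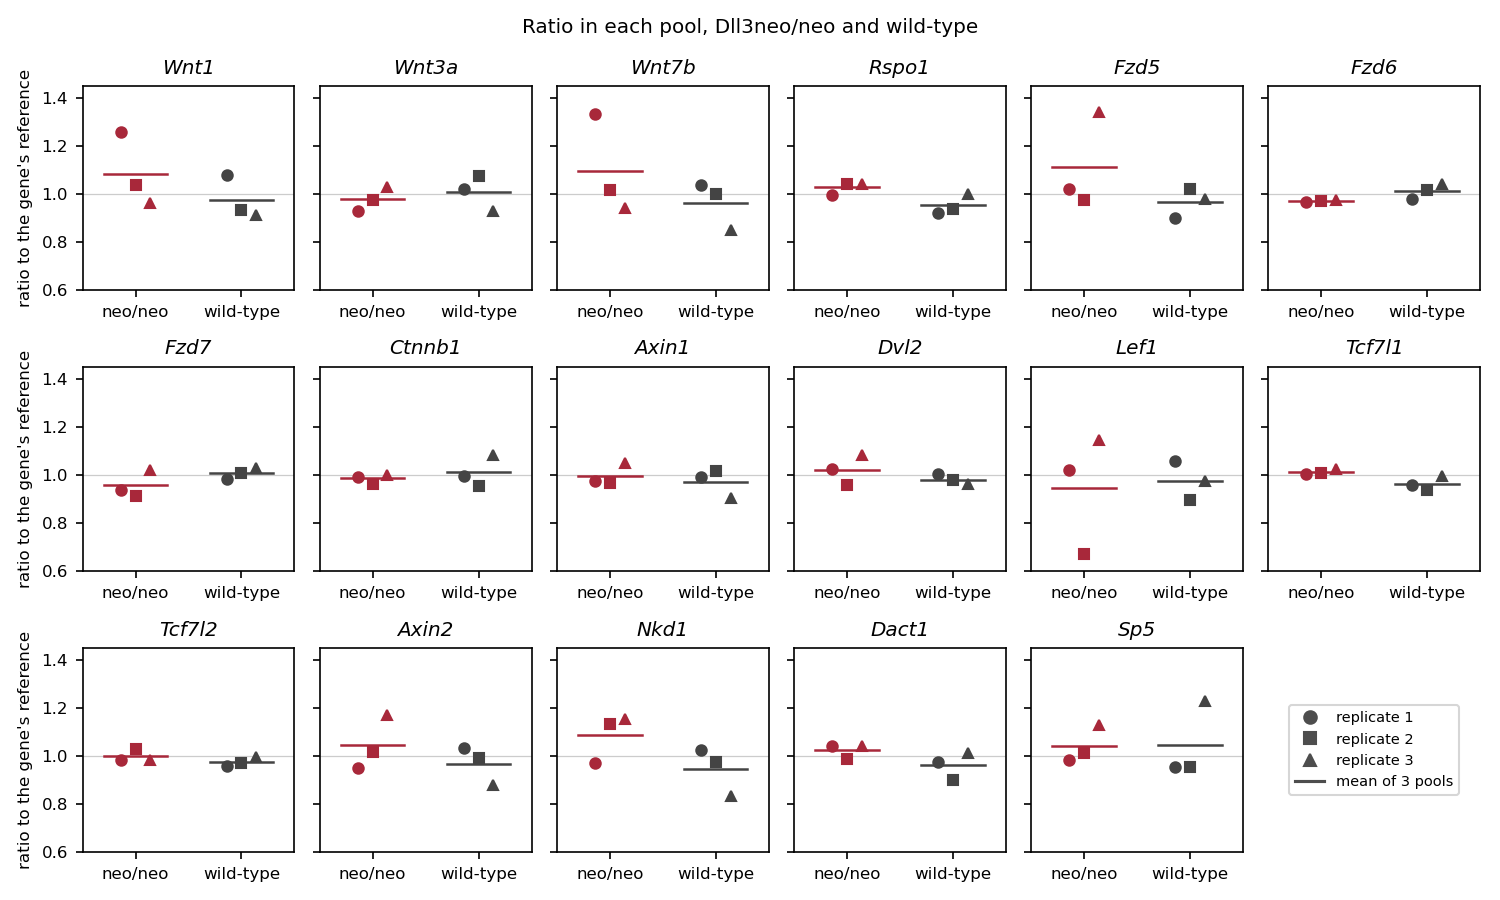
Ratio to the gene's own reference (vertical axis) in each of the 3 Dll3neo/neo and 3 wild-type pools for 17 of the genes given pool by pool (Wnt3 and Wnt5a are not drawn), with the mean of 3 pools as a line and the replicate number as the symbol. The groups overlap except for Fzd6 and Tcf7l1, and Lef1 shows the widest spread, 0.672 to 1.15 within the Dll3neo/neo pools.

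The feedback targets, genes that Wnt signalling itself turns on, all 5 had a log2 difference above 0, with a median of 0.089 and a range of 0.0012 to 0.20, and 0 of them passed the test. With the sex score as a covariate Axin2 was at -0.11 and Nkd1 at -0.074, and Sp5 lay below 0 without Dll3neo/neo replicate 3 (-0.057) and without wild-type replicate 1 or 2 (-0.060 each). The median of the 5 was 0.026 without Dll3neo/neo replicate 3. Of all genes 51.9% had a difference above 0. Nkd1, which binds Dishevelled and dampens the signal, had the smallest p-value of the 37 members. Its ratios were 0.973, 1.13 and 1.16 in the Dll3neo/neo pools, against 1.03, 0.974 and 0.836 in the wild-type pools. The first Dll3neo/neo pool lay within the wild-type range, and Nkd1 differed by 0.20 on the log2 scale (SE 0.101, 95% interval -0.020 to 0.43). It was 0.12 without wild-type replicate 3 and turned to -0.074 with the sex score.

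Axin2, the inducible Axin and a common readout of canonical signalling, had ratios of 0.952, 1.02 and 1.17 in the Dll3neo/neo pools, against 1.03, 0.994 and 0.879 in the wild-type pools. Pools 1 and 2 of each genotype overlapped, and the difference of 0.11 (SE 0.0979) was 0.026 without Dll3neo/neo replicate 3, 0.040 without wild-type replicate 3 and -0.11 with the sex score. Both of its probe sets lay above 0 (0.13 and 0.087). Dact1, which binds Dishevelled, had ratios of 1.04, 0.988 and 1.04 in the Dll3neo/neo pools, against 0.977, 0.903 and 1.01 in the wild-type pools, a difference of 0.089 (SE 0.0763) with overlap, or 0.042 without wild-type replicate 2.

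Sp5, the zinc finger target whose upstream window held the motif at 2 places, had ratios of 0.986, 1.01 and 1.13 in the Dll3neo/neo pools, against 0.956, 0.956 and 1.23 in the wild-type pools. The third pool of either genotype was its highest, and the difference was 0.0012 (95% interval -0.24 to 0.24). Tnfrsf19, a receptor gene that responds to Wnt, was at 0.056, with 1 of 3 probe sets at 0.18 and the other 2 at -0.0055 and -0.011.

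Across the roles, 25 of the 37 members had a log2 difference above 0 (67.6%) and 12 below (32.4%), with a median of 0.035, against 51.9% above and 48.1% below and a median of 0.0035 over all genes. This majority was smaller without Dll3neo/neo replicate 3, with 20 above and 17 below and a median of 0.0046. With both pools numbered 3 left out, it was 19 above and 18 below. With the sex score as a covariate it was 19 above and 18 below as well.

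Dll3neo/neo replicate 3 stood apart from the other pools within the list. Of the 37 members, 16 (43.2%) had their highest ratio in that pool and 0 their lowest, whereas 18.8% of all genes were highest and 16.1% lowest there. By role, these 16 were 3 of 11 secreted members, 3 of 11 receptors, 4 of 7 transducers, 2 of 3 nuclear factors and 4 of 5 feedback targets. With quantile normalization or with each array centred on its median, 14 members were highest in that pool and 0 lowest. The mean log2 ratio of the members was -0.038, -0.042 and 0.060 in the Dll3neo/neo pools, against -0.028, -0.064 and -0.031 in the wild-type pools, while the mean over all genes in Dll3neo/neo replicate 3 was -0.016. This share was noticed in the data and has no test. The mean log2 ratio was not highest in that pool for every list of other pathway genes (described below). Further Wnt ligands had their lowest mean there (-0.11). Secretion genes and nuclear partners had their highest mean in Dll3neo/neo replicate 2, and receptor turnover genes in Dll3neo/neo replicate 1. Noncanonical genes, destruction complex partners and other Wnt targets had theirs in Dll3neo/neo replicate 3.

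Markers of other tissues moved between the same pools. The mean log2 ratio of 6 measured ventral neural tube markers was -0.072, -0.12 and 0.21 in the Dll3neo/neo pools, against -0.058, -0.076 and 0.15 in the wild-type pools, with single genes from a difference of -0.23 to 0.37. That of 7 surface ectoderm markers was 0.034, -0.018 and 0.14 in the Dll3neo/neo pools, against -0.18, -0.23 and 0.15 in the wild-type pools, and 6 of these 7 genes had a difference above 0. The means of both lists were highest in the pools numbered 3 of each genotype, but single genes differed. Cdh1 (surface ectoderm) and Shh (ventral) were highest there in both genotypes. Tfap2a (surface ectoderm) was lowest there, and Nkx2-2 (ventral) was highest in the pools numbered 1. Means were also highest in the pools numbered 3 for 8 somite markers (0.016 in Dll3neo/neo and 0.11 in wild-type replicate 3) and 4 endothelium markers (0.058 and 0.040 in the same pools). The somite list included Uncx, whose log2 difference was -0.998, and its means were not taken without that gene. The 7 dorsal neural tube markers, of the tissue that expresses Wnt1 and Wnt3a, had means of -0.065, 0.064 and 0.018 in the Dll3neo/neo pools, against 0.030, -0.0086 and -0.063 in the wild-type pools. Of the other 5 lists (tail bud, lateral plate, heart, endoderm and erythroid), 0 were highest in both pools numbered 3. The part of these markers in the Wnt gene values was not tested.

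**Figure D3:**
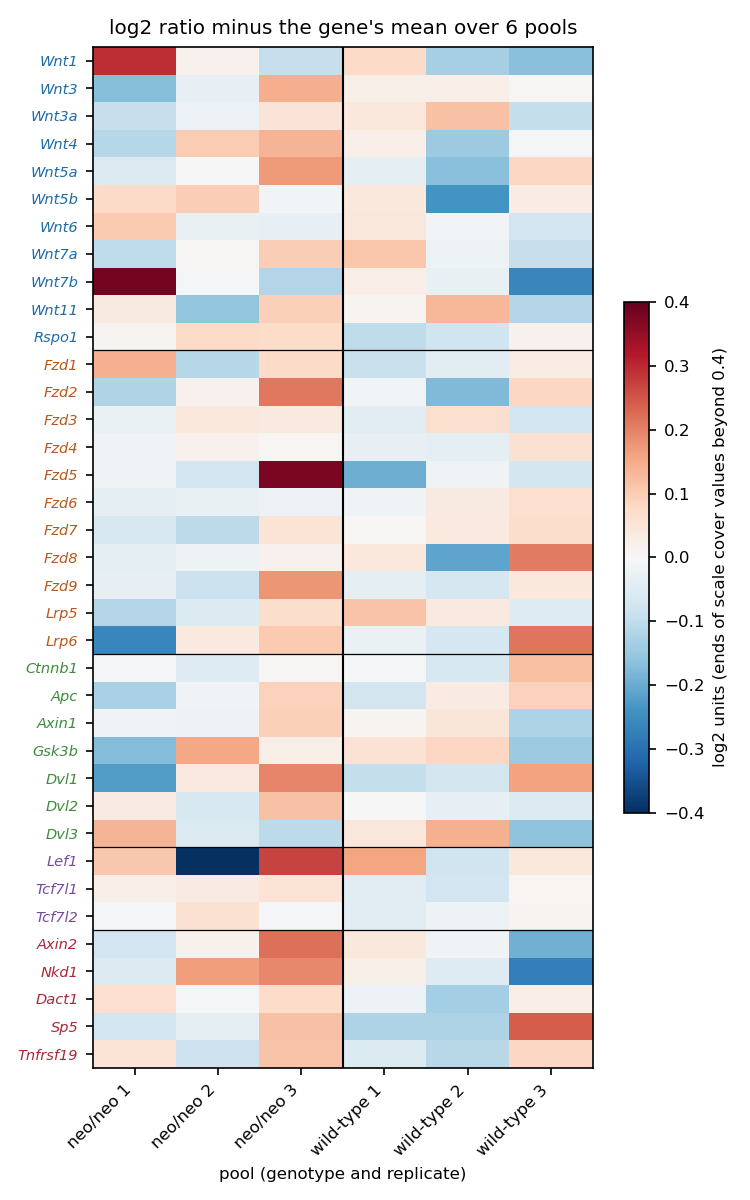
Log2 ratio of each of the 37 Wnt pathway genes minus its mean over the 6 pools (colour, red high and blue low), with genes in rows coloured by role and pools in columns, Dll3neo/neo left of the line. The column of Dll3neo/neo replicate 3 holds the highest value of 16 genes and the lowest of 0.

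The 18 members with several probe sets show how far readings of 1 gene differed. For 12 of them the probe sets lay on both sides of 0. Fzd3 spanned -0.097 to 0.26 over 4 probe sets, and Lrp6 and Wnt5a spanned similar distances. Probe sets lay on 1 side of 0 for Wnt5b, Wnt7b, Fzd6, Dvl2, Tcf7l1 and Axin2. Groups of pools did not overlap for 3 of the 63 member probe sets (4.76%), 1 each of Wnt5a, Wnt5b and Tcf7l1 and all higher in Dll3neo/neo, against 7.46% of all probe sets (4.07% higher and 3.39% lower). Counted singly, 37 member probe sets lay above 0 (58.7%) and 26 below (41.3%), against 51.5% and 48.5% of all probe sets. The 2 probe sets of Wnt7b were at 0.29 and 0.066, and those of Wnt5b at 0.17 and 0.047.

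The spread between pools of 1 genotype differed widely among the members. The within-group SD on the log2 scale was smallest for Fzd6 (0.030), Tcf7l1 (0.032) and Tcf7l2 (0.033), each the mean of several probe sets. It was largest for Lef1, followed by Wnt7b (0.215), Fzd5 (0.187) and Dvl1 (0.180). Of the 37 members, 19 had an SD above the median of all genes.

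**Figure D4:**
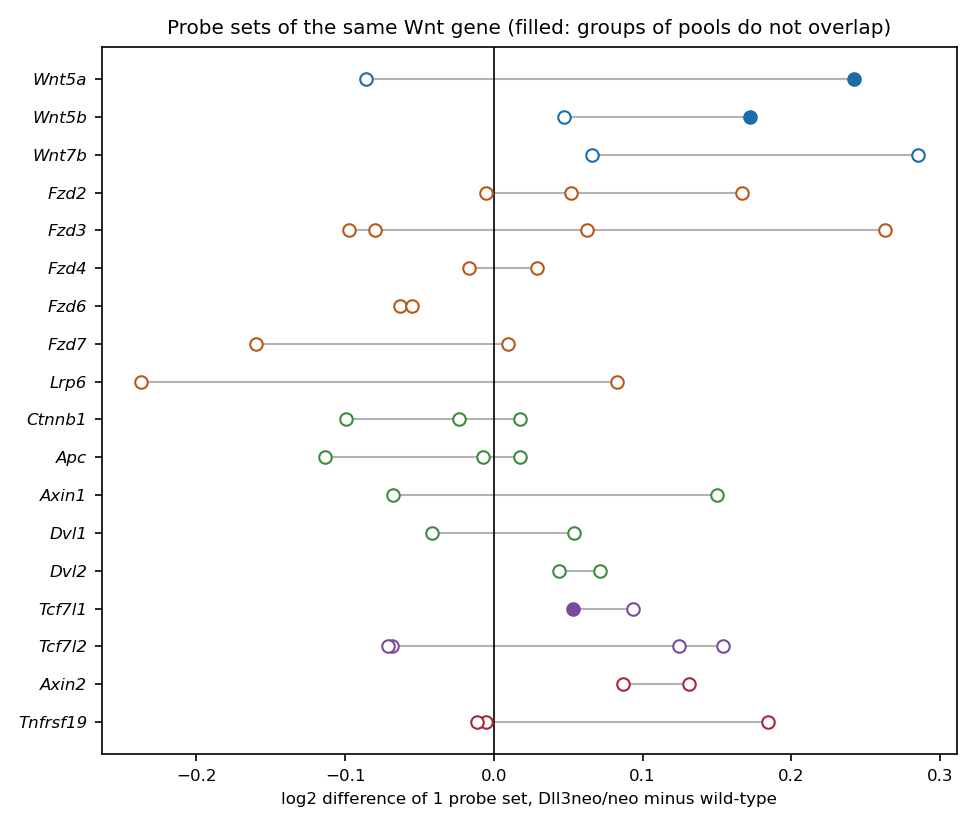
Log2 difference of each probe set (Dll3neo/neo minus wild-type, horizontal axis) for the 18 Wnt pathway genes with more than 1 probe set, a point per probe set and a line over the gene's range, filled where the groups of pools do not overlap. The range crosses 0 for 12 of the 18 genes, and the filled points belong to Wnt5a, Wnt5b and Tcf7l1.

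Other genes of the pathway were described in the same way. Of their 65 measured genes, 0 passed the limma test or had an unadjusted p under 0.05, against 0% and 2.67% of all genes. Groups of pools did not overlap for Pygo2, Ctnnbip1 and Rnf43 (higher in Dll3neo/neo) and for Apc2, Bcl9l and Ccnd1 (lower), against 7.46% of all genes. For the counts by sign that follow, 51.9% of all genes lay above 0. Of 2 genes of ligand secretion, Wls, which carries Wnt proteins to the cell surface, was at 0.14 (SE 0.0947) and Porcn, which adds their lipid, at 0.065. Of 9 further Wnt ligands, 7 were below 0 and 2 above (median -0.050), with Wnt10a at -0.18 and Wnt16 at -0.18. Of 13 genes of the noncanonical and polarity branch, 9 were above 0 and 4 below (median 0.058), with the receptor-like gene Ptk7 at 0.19 (SE 0.0961) and the receptor kinase gene Ror1 at -0.13 (SE 0.0919).

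Among partners of the destruction complex, 7 of 11 were above 0, with Frat2, an inhibitor of Gsk3, at 0.19 (SE 0.107) and Apc2 at -0.16 (SE 0.0803). Among nuclear partners, 7 of 13 were above 0, with Ctnnbip1, which blocks the binding of beta-catenin to Tcf factors, at 0.15 (SE 0.0775) and the coactivator gene Bcl9l at -0.13 (SE 0.0737). Of 3 measured genes of receptor turnover and R-spondin reception, the ubiquitin ligase gene Rnf43 was at 0.18 (SE 0.0886) and the R-spondin receptor gene Lgr5 at -0.19 (SE 0.0869). Of 14 other genes listed as Wnt targets, 7 lay on each side of 0 (median -0.0018), with Tbx6 at -0.14 (SE 0.0985) and Cdx2 at -0.10 (SE 0.0773). That list also held the R-spondin gene Rspo2 (0.11).

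The pools also differed in sex-linked and blood transcripts. Xist, the RNA that coats the silenced X chromosome in female cells, had ratios of 1.09, 1.71 and 1.41 in the Dll3neo/neo pools, against 0.975, 0.426 and 0.418 in the wild-type pools. The groups did not overlap, and the sex score (Xist minus the mean of Eif2s3y, Kdm5d and Uty, log2 scale) was 0.045, 0.81 and 0.73 in the Dll3neo/neo pools, against -0.085, -1.48 and -1.73 in the wild-type pools. All 4 measured erythroid markers had a difference above 0 (0.19 to 0.29), and 3 of them had an unadjusted p under 0.05, against 2.67% of all genes (1.31% higher), while 0 passed the adjusted threshold in limma. Of 5 heart markers, the cardiac troponin gene Tnnt2 had ratios of 1.003, 1.31 and 1.13 in the Dll3neo/neo pools, against 0.891, 0.923 and 0.980 in the wild-type pools. Its groups did not overlap, its log2 difference was 0.29 (SE 0.0999), and it missed the adjusted threshold in limma. For the other heart markers the groups overlapped, with Myl7 at 0.086, Myh6 at 0.10, Nkx2-5 at -0.034 and Myl2 at -0.0068. The heart was among the tissues cut away. The part of these transcripts in the Wnt gene values was not tested beyond the fit with the sex score. Because the score did not overlap between the genotypes, that fit separates genotype and sex mix poorly. Dll3 had ratios of 0.996, 1.01 and 0.941 in the Dll3neo/neo pools, against 0.960, 1.004 and 1.03 in the wild-type pools. Where its probe set lies relative to the allele's insertion is not stated, so these values do not check the labels.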

How the data were processed

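Total RNA of 3 Dll3neo/neo and 3 wild-type pools was measured on 1 array each. What was deposited by the authors is taken as a linear ratio per probe set and pool, since the row median is 1 (within 0.0015) for 93.4% of rows and lower for the other 1497. The submitters' processing notes list RMA and MAS5 but no version and no role; the scaling between arrays is not stated. Ratios hold no signal level, so no filter on dim probe sets could be set.

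The 64 control probe sets were left out. The platform annotation gave 1 gene for 20380 of 22626 probe sets, several for 691 and none for 1555. Log2 ratios were averaged over the probe sets of a gene. Genotype was the one term of a linear model fitted by limma (version 3.58.1, R 4.3.3, with eBayes), once over probe sets and once over genes, with Benjamini-Hochberg adjustment over all of them, after a test on simulated data. Precision is limited by the 6 arrays, and a gene's log2 difference had a median SE of 0.087. Exact permutation of 3 against 3 pools allows no p under 0.1 and was not used.

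Members and lists were chosen with earlier results of these data known. Values in every pool are given for the 3 members of smallest p per role, for members whose groups do not overlap, and for Wnt3a, Ctnnb1, Lef1, Axin2 and Sp5. Outside that choice, they are also given for Wnt3 and for the 2 probe sets of Wnt5a. Of other lists the 2 genes of smallest p are named. The pool-by-pool share of highest values was computed after seeing the data. Upstream windows came from a RefSeq table and were searched by script. Alternatives were a replicate block, a variance trend, a robust fit, array weights, quantile normalization, median centring, a pseudocount, other probe set choices, a sex score, left-out pools and an adjusted threshold of 0.1. Figures were drawn with matplotlib 3.10.9.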

Additional observations from a re-analysis of the deposited data

How the results depend on the processing

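Over the 19 alternatives, the count of Wnt member genes and of member probe sets past the adjusted threshold was 0 in each, also with a threshold of 0.1. At unadjusted p under 0.05 the count of member genes was 0 to 2, and that of member probe sets 0 to 5. The genes were Rspo1 and Nkd1 under array weights, where 9.68% of all genes had such a p. Nkd1 was also under 0.05 without Dll3neo/neo replicate 1 (5.1% of all genes) or wild-type replicate 1 (2.78% of all genes). Over all probe sets the adjusted count was 1 with a replicate block, 1 with array weights, 2 with the robust fit, and 0 to 1 with single pools left out, none of them members; the count at unadjusted p under 0.05 was 595, and 267 (sex score) to 1770 (array weights) over the alternatives. The replicate numbers were not taken as pairs. Over all probe sets, the correlation of deviations was 0.37, -0.025 and 0.37 for the pools numbered 1, 2 and 3. Over the member probe sets it was 0.46, -0.011 and 0.47. Dll3neo/neo replicates 1 and 3 correlated best with the wild-type pool of the same number. Dll3neo/neo replicate 2 correlated best with wild-type replicate 3 (0.15 over all probe sets). The replicate block gave 0 member genes at unadjusted p under 0.05, 5 member probe sets (2 without it) and 1072 probe sets in all. The median of all members stayed above 0 (0.0039 to 0.053). That of the ligands was -0.0013 with the sex score, 0.027 when only the most variable probe set was used for each gene, and 0.029 to 0.089 with single pools left out. That of the transducers was -0.048 without both pools numbered 3 and -0.011 to 0.055 with single pools left out. That of the nuclear factors was -0.0052 without _x_at and _s_at probe sets, 0.094 with the most variable probe set, and 0.022 to 0.076 with single pools left out. The medians of the receptors (-0.039 to 0.039) and feedback targets (0.026 to 0.12) took in either sign for the receptors. Each stayed nearer to its main value (0.0064 and 0.089) than 1 SD between pools (0.055 and 0.078).

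Some named genes changed sign in at least 1 alternative; none of these values passed the test. With the sex score, Ctnnb1 was at 0.020, Axin1 at -0.035, Axin2 at -0.11 and Nkd1 at -0.074. Without both pools numbered 3, Ctnnb1 was at 0.0039, Axin1 at -0.048, Dvl2 at -0.00034 and Axin2 at -0.043. Sp5 was at -0.0032 with median centring and Tcf7l2 at -0.0052 without _x_at and _s_at probe sets. With single pools left out, the ranges were -0.24 to 0.15 for Lef1, -0.099 to 0.0071 for Wnt3a, -0.060 to 0.12 for Sp5, -0.075 to 0.016 for Ctnnb1 and -0.0099 to 0.076 for Axin1. The cause of these changes was not tested. Ratios hold no signal over background, so which probe sets were dim is not known here.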
